A study of Saccharomyces cerevisiae with 8 samples.

Results

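The genes for the proteins of the small (40S) subunit of the cytosolic ribosome were taken as a set from nascent transcription profiles of budding yeast. Their members were the open-reading-frame transcripts (ORF-Ts) whose gene symbol begins with RPS and a digit, 54 of the 5169 ORF-Ts in that table and of 7272 features in all. They lay on 14 chromosomes, in features of 433 to 1465 bases, and held 488 to 16283 reads per gene and library. Of the 54, 44 formed 22 pairs of an A and a B paralogue, and 8 were single-copy genes, RPS2, RPS3, RPS12, RPS13, RPS15, RPS20 and RPS31 among them. For RPS8B and RPS11B the A partner stood on a feature of type "other". Each of those features also carries another symbol.

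NET-seq (native elongating transcript sequencing) was the assay: RNA polymerase II is pulled down by a tag on its Rpb3 subunit, and the nascent RNA that comes with it is sequenced. All 8 libraries were from Rpb3-FLAG strains grown to mid-log phase in YPD, a rich glucose medium, with 2 biological replicates per group. The groups were strain YSB3062 with cac1Δ, YSB3063 with cac2Δ, YSB3064 with cac3Δ, and wild-type YSC0001. The deleted genes were each studied in 1 strain, and the wild-type strain number has another prefix, so strain background and deletion cannot be told apart. Their products form chromatin assembly factor I (CAF-I), which assembles H3 and H4 histones onto newly replicated DNA.

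The 40S subunit decodes messenger RNA and is built from 18S ribosomal RNA and proteins of its head, body, platform and neck. In growing yeast the ribosomal protein genes take a large share of RNA polymerase II. They are driven by Rap1 with Fhl1 and Ifh1, and many of them survive from a whole-genome duplication as near-identical pairs. Their promoters are depleted of nucleosomes and, like many yeast promoters, can start transcripts in the divergent direction.

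The cac1 libraries held 1959549 and 4679697 reads, the cac2 libraries 2275416 and 3720649, the cac3 libraries 7117979 and 6604240, and the wild-type libraries 1880299 and 7705151. Wild-type replicate 1 and cac1 replicate 1 were thus the shallowest. Each deleted gene was lower in its own mutant: RLF2, which encodes Cac1, by -1.47 (SE 0.10) on the log2 scale in cac1, CAC2 by -1.58 (SE 0.11) in cac2 and MSI1, which encodes Cac3, by -1.16 (SE 0.07) in cac3. Levels are given as RPKM, which divides reads by feature length and by scaled library size, with the SD over the 2 libraries of a group. A change is the log2 value in a mutant, or averaged over the 3 mutants, minus that in wild type, with its standard error (SE). A gene is said to have risen or fallen where its adjusted p was below 0.05.

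In wild type the 54 genes were among the most heavily transcribed of the genome. Their median level was 687 RPKM, against 60.6 RPKM for all ORF-Ts, and they held ranks 4 to 315 of 5169. The top 100 ORF-Ts included 26 of them. The highest was RPS31, whose protein is made as a fusion to ubiquitin, at 2846 ± 75.2 RPKM. RPS12, for a protein of the beak of the head, stood at 2735 ± 74.9 RPKM. The other genes at the top were RPS3, whose protein lines the mRNA entry channel, at 2093 ± 17.1 RPKM and RPS13 at 1918 ± 52.1 RPKM. The lowest were RPS22B at 296 ± 4.18 RPKM, RPS7B at 367 ± 19.4 RPKM, RPS0A at 436 ± 4.84 RPKM and RPS6A at 446 ± 8.03 RPKM. The wild-type ranges of RPS31 and RPS12 nearly met, as did those of RPS0A and RPS6A. All 4 of the lowest genes belong to pairs, and all 4 of the highest are single-copy.

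Because the proteins are needed in equal number, the levels of A and B were also added for each protein. Over the 54 separate genes the highest level was 9.62 times the lowest and the coefficient of variation was 61.2%. Over the 30 proteins whose full gene set was at hand, the range shrank to 3.14-fold and the coefficient of variation to 32.3%. Adding levels narrows a relative spread even for unrelated genes, so this shrinkage cannot show that the copies of a pair balance each other. For the pairs alone, the coefficient of variation was 39.8% over the separate genes and 30.3% over the sums. Whether these sums were more even than sums of genes paired at random was not tested. Genes of a pair had a median of 627 RPKM, and their sums a median of 1309 RPKM over the 22 pairs. The 8 single-copy genes had a median of 1782 RPKM. The sum was highest for RPS14, a platform protein, at 2845 ± 144 RPKM, next to RPS31 at 2846 ± 75.2 RPKM. It was lowest for RPS6, at 905 ± 21.7 RPKM. In the mutant libraries the per-protein range was 3.11-fold to 3.41-fold, and in the wild-type libraries 3.26-fold and 3.20-fold.

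**Figure D1:**
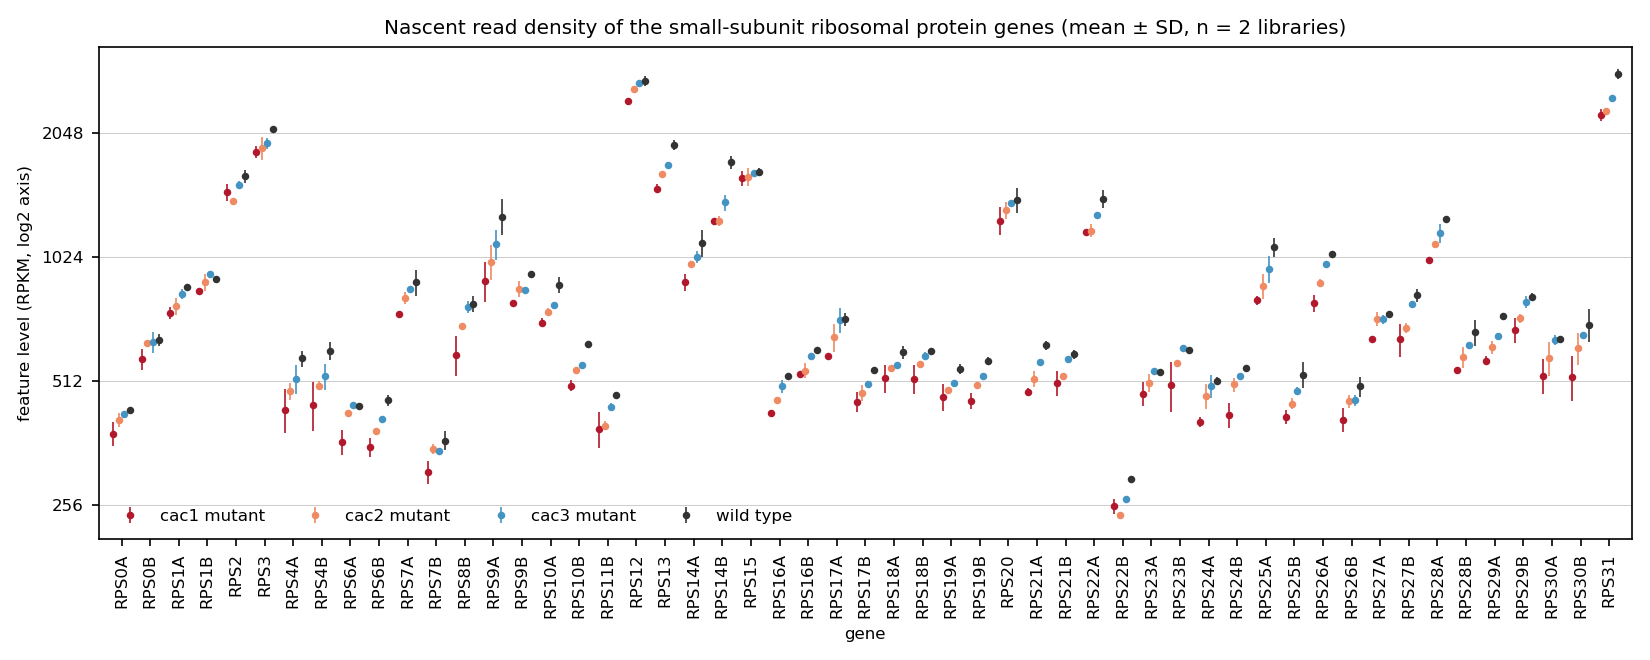
Level of 53 of the 54 genes (vertical axis, RPKM on a log2 axis; points mean and bars SD over 2 libraries) in cac1, cac2, cac3 and wild type, left to right within each gene. RPS31, RPS12, RPS3 and RPS13 stand highest, and for most genes the levels climb in the order of the groups.

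The genes as a set took a smaller share of the reads in every mutant library than in wild type. In cac1 the share was 3.84% and 4.02%, in cac2 4.16% and 4.14%, and in both cac3 libraries 4.33%. In wild type it was 4.51% and 4.55%. The 6 mutant values did not overlap the 2 wild-type values, nor did those of any mutant overlap those of another. In bulk cultures, fewer cells with a transcript and less transcript per cell cannot be told apart.

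Gene by gene, 35 of 54 fell in the mean of the 3 mutants and none rose (edgeR quasi-likelihood test, Benjamini-Hochberg adjusted over 7271 features). Over all features tested 8.86% fell and 11.9% rose. All 54 changes were negative, with a median of -0.18 on the log2 scale, against 0.01 for all features. The changes were small, between -0.42 and -0.03. In 35 genes, counted apart from the test, all 6 mutant libraries lay below both wild-type libraries, which was so for 14.7% of all features. In none did they all lie above. The number of falls depended on the libraries kept. It was lower without either wild-type replicate or without cac3 replicate 1, and lowest without wild-type replicate 2. Leaving a library out keeps only 1 in its group, so the part of that library and the lost precision cannot be told apart. With total counts as the only scaling, 19 genes fell, 52 of 54 changes were negative and the split over all features was 1219 higher against 388 lower, beside 865 against 644.

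The median change was lowest in cac1. There 46 of 54 genes fell (8.38% of all features), with a median change of -0.28. In cac2, 20 fell (5.94% of all features), with a median of -0.18, and all 54 changes were again negative. In cac3 only RPS14B and RPS31 fell (2.38% of all features). The cac3 median was -0.09, with 50 changes negative and 4 positive. No gene rose in any mutant, where 10.8%, 9.57% and 3.7% of all features rose in cac1, cac2 and cac3. The mutants share the wild-type libraries, so these counts are not independent of one another. Over all ORF-Ts replicate numbers pair the libraries across groups, but over the 54 genes this pairing was weak between some groups. With the replicate number as a block 34 genes fell in cac2 (10.5% of all features) and 10 in cac3 (6.13%). Without wild-type replicate 2 the counts were 13 in cac1, 2 in cac2 and 0 in cac3. Without wild-type replicate 1 they were 30, 11 and 1, and without cac1 replicate 1 cac1 had 28. In cac2, 7 genes fell without its replicate 1 and 7 without its replicate 2.

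The mutants were then compared with each other, where the wild-type libraries enter only through the shared estimate of the spread. In 48 of 54 genes the change was lowest in cac1, higher in cac2 and highest in cac3, and in 51 it was lowest in cac1. The share of all features in this order was not counted. All genes were read in the same 2 libraries per mutant, so they are not independent observations. All 54 genes, beside 3369 of 7271 features, were lower in cac1 than in cac3, with a median difference of -0.19 over the genes. The difference passed the threshold for 4 of them, RPS6A, RPS8B, RPS24B and RPS26A (0.688% of all features), and none was higher in cac1 (0.674%). With the replicate block it did so for 29 (3.84% of all features). Without cac1 replicate 1, either cac3 replicate or either wild-type replicate no gene passed, and without cac1 replicate 2 there were 7. Between cac2 and cac3 and between cac1 and cac2 no gene differed by the edgeR test (0.261% and 0.0138% of all features were lower, 0.344% and 0.0413% higher). At an unadjusted p below 0.05 there were 10 and 15 genes, and the DESeq2 test also called none in either comparison. With the block the comparison of cac1 with cac2 had 1 gene (0.413% of all features).

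**Figure D2:**
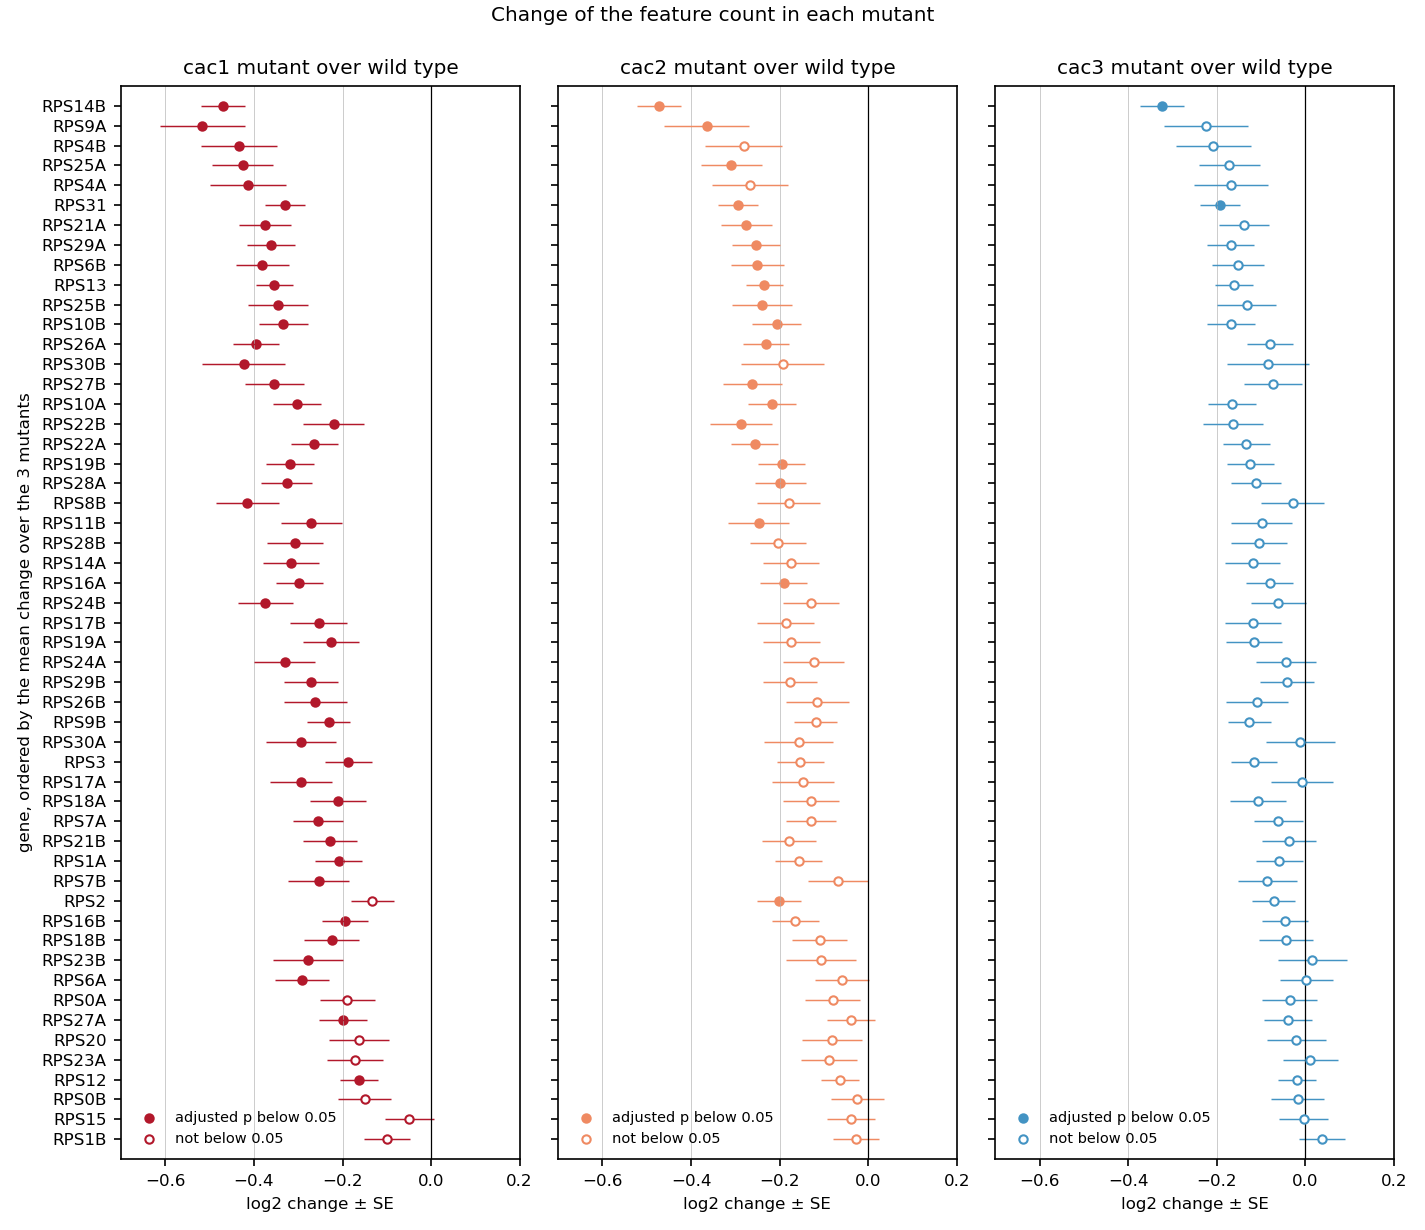
Log2 change ± SE of 53 of the 54 genes (rows, ordered by the mean change over the 3 mutants) in cac1, cac2 and cac3 over wild type. Filled points have an adjusted p below 0.05: 46 in cac1, 20 in cac2 and 2 in cac3, all left of 0.

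The largest fall was that of RPS14B (YJL191W, chromosome X, 73753 to 74745, genome build not given in the sources used here), the stronger of the pair for a platform protein. Its level was 1242 and 1267 RPKM in cac1, 1227 and 1277 in cac2, 1344 and 1433 in cac3, and 1695 and 1778 in wild type. No mutant library reached a wild-type library. The mean log2 change was -0.42 (SE 0.04, edgeR adjusted p = 0.000104). It was -0.47 (SE 0.05) in cac1, -0.47 (SE 0.05) in cac2 and -0.32 (SE 0.05, edgeR adjusted p = 0.00428) in cac3. The cac3 call was lost without cac3 replicate 1 (-0.28) or wild-type replicate 2 (-0.29). The 3′ end of the feature overlaps that of RPS22A on the opposite strand by 77 bases, and RPS22A changed by -0.22 (SE 0.04). Since the use of strand in the feature counts is not stated, reads of such overlaps cannot be assigned to 1 gene.

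RPS9A (YPL081W, chromosome XVI, 404907 to 406219), for a body protein near the mRNA entry site, was at 826 and 968 RPKM in cac1, 928 and 1066 in cac2, 1034 and 1166 in cac3, and 1192 and 1374 in wild type. Its replicates were far apart, and the lower wild-type value stood just above the higher cac3 value. The mean change was -0.37 (SE 0.08, edgeR adjusted p = 0.0081), and it was lost without wild-type replicate 2 (-0.26). RPS4B and RPS4A, also body genes, changed by -0.31 (SE 0.07) and -0.28 (SE 0.07). RPS25A, for a head protein, changed by -0.30 (SE 0.06). All 3 fell in the mean and in cac1. RPS25A alone of them fell in cac2, while RPS4B missed the threshold there (adjusted p = 0.0503 by edgeR) and passed it with the replicate block, as did RPS4A. The mean call of RPS4B was lost without wild-type replicate 2, that of RPS25A without wild-type replicate 1 and that of RPS4A without either.

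Of the 8 single-copy genes, 4 fell in the mean of the mutants. RPS31 (YLR167W, chromosome XII, 498865 to 499561) was at 2323 and 2209 RPKM in cac1, 2294 and 2347 in cac2, 2454 and 2523 in cac3, and 2899 and 2793 in wild type, with no overlap. Its mean change was -0.27 (SE 0.04, edgeR adjusted p = 0.000743). In cac3 it was -0.19 (SE 0.05), a call lost with total-count scaling, with the DESeq2 test and without any 1 of the cac3 or wild-type libraries. Its feature overlaps YLR168C on the opposite strand by 93 bases. RPS13 was at 1476 and 1525 RPKM in cac1, 1639 and 1623 in cac2, 1699 and 1734 in cac3, and 1881 and 1955 in wild type. Its mean change was -0.25 (SE 0.03), and its cac3 change of -0.16 (SE 0.04, edgeR adjusted p = 0.0505) passed with the replicate block. RPS3 fell by 0.15 (SE 0.04) and RPS2, whose protein bears on decoding accuracy, by 0.13 (SE 0.04).

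The other 4 single-copy genes did not pass in the mean. RPS15, which encodes a head protein reaching to the decoding centre, was at 1639 and 1541 RPKM in cac1, 1542 and 1658 in cac2, 1625 and 1656 in cac3, and 1671 and 1619 in wild type. These ranges overlapped, and the change was -0.03 (SE 0.04). RPS12 had a change of -0.08 (SE 0.03) and RPS20 of -0.09 (SE 0.05). In cac1, however, RPS12 fell, with a change of -0.16 (SE 0.04, edgeR adjusted p = 0.0248). RPS2 did not pass there (edgeR adjusted p = 0.0807). Among the genes that fell in the mean, the smallest changes were those of RPS9B (-0.16), RPS7A (-0.15), RPS1A (-0.14) and RPS16B (-0.13), besides RPS3 and RPS2. Their SEs were 0.04 to 0.05.

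By place in the subunit, 15 of 22 head genes, 9 of 14 body genes and 11 of 18 platform and neck genes fell. Their medians were -0.18, -0.20 and -0.15. In cac1, 19 of the 22 head genes fell with a median of -0.28, 13 of the 14 body genes with -0.35 and 14 of the 18 platform and neck genes with -0.25. Between cac1 and cac3 the body genes had the lowest median difference, -0.29, beside -0.16 for the head genes and -0.16 for the platform and neck genes. Of the 4 genes past the threshold in that comparison, 3 (RPS6A, RPS8B and RPS24B) are body genes. The difference between positions was not tested. Of the genes in pairs 29 of 44 fell, with a median of -0.19, beside -0.11 over the single-copy genes. In 10 pairs both copies fell, in 9 a single copy, and in 3 neither. In cac1 both copies fell in 19 of the 22 pairs.

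Genes that work with these proteins were set beside them. Over all features tested 8.86% fell and 11.9% rose. Of 81 large-subunit ribosomal protein genes 46 fell and 1 rose, with a median of -0.17, near that of the small subunit. The deepest of these falls were -0.37 (SE 0.06) at RPL36A, -0.34 (SE 0.06) at RPL26B and -0.33 (SE 0.06) at RPL7B. Of 22 matched 40S assembly factors none fell and 2 rose, with a median of 0.08. These were BUD23, which methylates 18S ribosomal RNA, by 0.33 (SE 0.08) and DHR2, a helicase of rRNA processing, by 0.28 (SE 0.06). Of 13 matched regulators of ribosomal protein genes only CRF1, a corepressor that binds Fhl1, changed, by 0.59 (SE 0.13), and the median was -0.01. Of 16 genes for 40S partners and initiation factors only ASC1 fell, by 0.24 (SE 0.04). Asc1 is the RACK1 protein on the 40S head, and its feature also holds the small nucleolar RNA SNR24. Calls in the assembly, regulator and partner lists were no more frequent than over all features. The difference between these lists and the small-subunit genes was not tested.

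The A and B copies of a pair were compared by the ratio of their reads per length in each library. No source used here gives the treatment of reads that match both copies, and the ratio of near-identical copies is therefore uncertain. In wild type 16 of 22 pairs were unequal (limma, adjusted over the 57 A and B pairs of the whole table, of which 78.9% were), 8 with A higher and 8 with B higher. A lay above B in all 8 libraries in 8 pairs and below it in 7. In the other 7 the sides were mixed. The median absolute log2 ratio was 0.19, against 0.43 for the 35 other A and B pairs, a difference that was not tested.

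Most pairs were close to even, and a few were far from it. RPS22A over RPS22B was the most unequal, at 4.52 and 4.75 in cac1, 4.72 and 5.05 in cac2, 4.78 and 4.99 in cac3, and 4.66 and 4.91 in wild type. Its wild-type log2 ratio was 2.26 (SE 0.08). The groups overlapped. The RPS22B feature also holds the small nucleolar RNA gene SNR44. RPS7A over RPS7B had a log2 ratio of 1.27 (SE 0.07), RPS26A over RPS26B 1.07 (SE 0.06) and RPS25A over RPS25B 1.02 (SE 0.07). RPS28A over RPS28B had 0.91 (SE 0.06) per length, but its A feature is 433 bases long and its B feature 1305, and the A feature held fewer reads, 1009 and 4053 in wild type against 1532 and 6844 on B. The most even pairs were RPS18 at -0.01 (SE 0.04), RPS6 at -0.04 (SE 0.05) and RPS4 at -0.06 (SE 0.04).

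**Figure D3:**
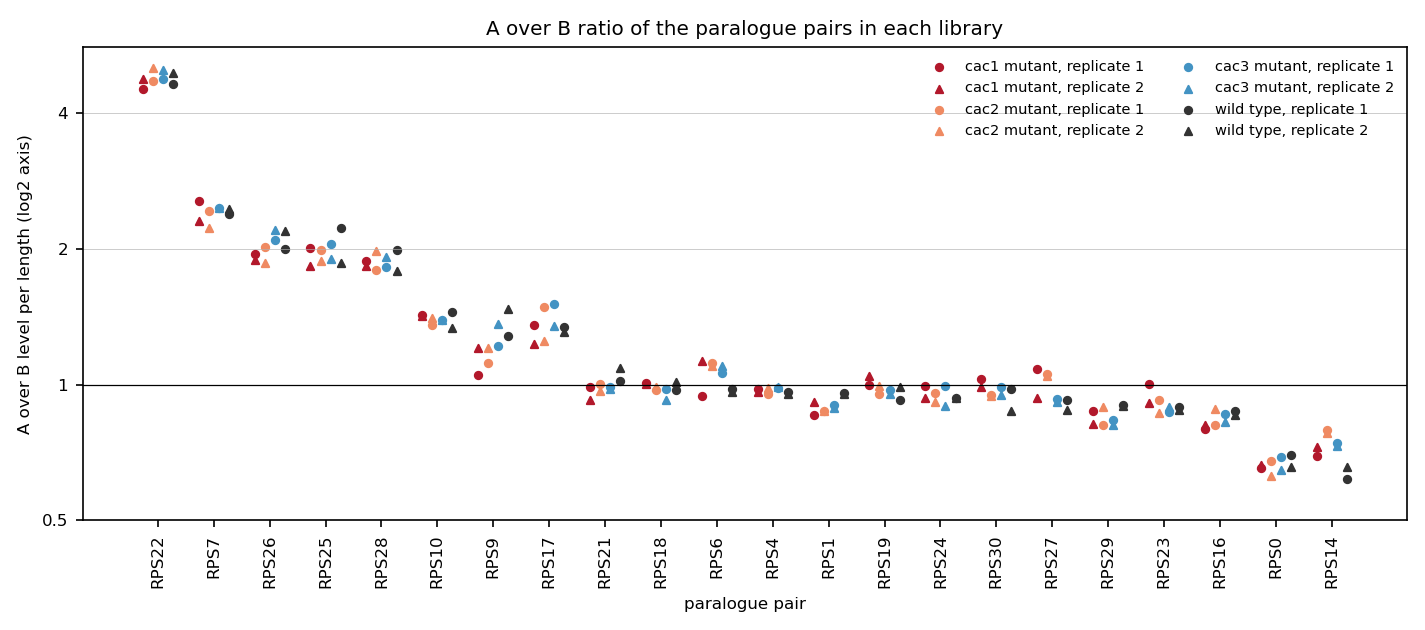
A over B ratio of reads per length (vertical axis, log2) for the 22 pairs in each library, with pairs ordered by their wild-type ratio. RPS22 stands above 4 in all 8 libraries, and RPS14 is the pair whose mutant points all lie above its wild-type points and whose change passed the threshold.

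The balance of 1 pair shifted. RPS14A over RPS14B was 0.694 and 0.727 in cac1, 0.792 and 0.780 in cac2, 0.743 and 0.731 in cac3, and 0.619 and 0.657 in wild type. Every mutant library lay above both wild-type libraries, and B stayed the stronger copy in all 8. The mean log2 change of the ratio was 0.22 (SE 0.05, limma adjusted p = 0.0143), the only one of 22 past the threshold (1.75% of the 57 pairs). By mutant it was 0.30 (SE 0.06, limma adjusted p = 0.00406) in cac2, again the only pair (1.75% of 57). It was 0.15 (SE 0.06) in cac1 and 0.21 (SE 0.06) in cac3, which did not pass, and no other pair passed there (0% of 57 in each). The unadjusted p of both was below 0.05. The mean call was lost without a mean trend in the variance, without cac3 replicate 1 and without wild-type replicate 1 (0.18), and the cac2 call without wild-type replicate 1.

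The next pair was RPS9, with A over B at 1.05 and 1.21 in cac1, 1.12 and 1.21 in cac2, 1.22 and 1.36 in cac3, and 1.28 and 1.47 in wild type. The cac3 values overlapped wild type, and the mean change of -0.21 (SE 0.07) had a limma adjusted p of 0.124. It passed with the replicate block, where 2 of the 22 pairs passed in the mean, 1 in cac1 and 4 in cac2. Over all 57 pairs the block called 3.51%, 5.26% and 10.5% in the same order. RPS27 came after it, with a change of 0.14 (SE 0.06) that did not pass in the mean and passed with the block in cac2.

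A second count covers the window beside each gene's 5′ end, where divergent transcripts from the promoter would run. Its bounds, 500 bases upstream to 100 downstream on the opposite strand, were inferred from counts and coordinates, not given in the labels. The strand was read from the data, since over 1774 windows of the noncoding table the counts ranked with reads of opposite-strand features (Spearman 0.85) and against those of the same strand (-0.40). Of the 54 windows 19 had the full 600 bases, and 35 were shorter, down to 228 bases, ending within 10 bases of a neighbouring gene. Their reads were few beside those of the genes, 1330 and 5712 over all 54 windows in wild type.

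While the genes fell, many of their windows rose. In the mean of the mutants 23 of 54 windows rose and 2 fell by the edgeR test, where 18.1% of all windows rose and 4.39% fell. The median change was 0.58, against 0.15 for all windows. In 28 windows all 6 mutant libraries lay above both wild-type libraries (25.3% of all windows) and in 3 below (8.92%). In cac1, 19 rose and 2 fell (15% and 4.44% of all windows), with a median of 0.74. In cac2, 16 rose and none fell (16.6% and 1.66%), with a median of 0.80. In cac3, 8 rose and none fell (5.3% and 0.746%), with a median of 0.46. With the replicate block 25 rose and 1 fell in cac2 (23.8% and 3.71%), and 14 rose and none fell in cac3 (11.5% and 3.19%).

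These window counts also depended on the libraries kept. Without wild-type replicate 2 fewer windows rose in the mean and in each mutant. Without wild-type replicate 1, or without cac2 or cac3 replicate 1, the mean had 14, 15 and 15, and the falls were 0 without cac1 or cac2 replicate 1, either cac3 replicate or either wild-type replicate. In cac1, 11 rose without its replicate 1 and 6 without its replicate 2, with no fall in either case. The falls in cac1 were 0 when wild-type replicate 2 was left out and 1 when wild-type replicate 1 was. In cac2, 9 rose without its replicate 2, and in cac3, 5 without wild-type replicate 1 and 4 without cac3 replicate 1. The DESeq2 test called 8 in the mean. Window libraries differ in depth too: among all ORF-T windows 126 were empty in wild-type replicate 1 and 1 to 19 in the other libraries, and the part of this in the result was not tested.

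The windows were then divided by what is annotated on the opposite strand within the full 600 bases, although 35 of the counted windows were shorter. In 30 windows there was nothing, in 7 a cryptic unstable or stable unannotated transcript (CUT or SUT) and in 17 another gene. Of the 23 windows that rose, 18 were among the 30 with nothing annotated. There 18 rose and 1 fell, with a median change of 1.24, and the medians were 1.33 in cac1, 1.28 in cac2 and 1.01 in cac3. Their summed reads were 263 and 205 RPM (reads scaled to library size as in RPKM, without the length) in cac1, 280.2 and 222 in cac2, 203 and 192 in cac3, and 137 and 128 in wild type. No mutant library overlapped wild type.

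Windows over an annotated transcript had smaller median changes. Over the 7 with a CUT or SUT 3 rose and 1 fell, with a median of 0.01, and their summed reads were 161 to 206 RPM in the mutants, on both sides of the 170.5 and 195 of wild type. Over the 17 with a gene 2 rose, with a median of 0.18, and the sums were 432 to 495 RPM in the mutants and 415 and 446 in wild type. These classes differ in depth, with a median of 164 reads per window over all libraries where nothing is annotated, 646 in the CUT or SUT class and 554 in the gene class. The difference between the classes was not tested. By place in the subunit 9 of 22 head windows, 5 of 14 body windows and 9 of 18 platform and neck windows rose, and by copy number 4 of 8 single-copy and 18 of 44 paired genes' windows.

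**Figure D4:**
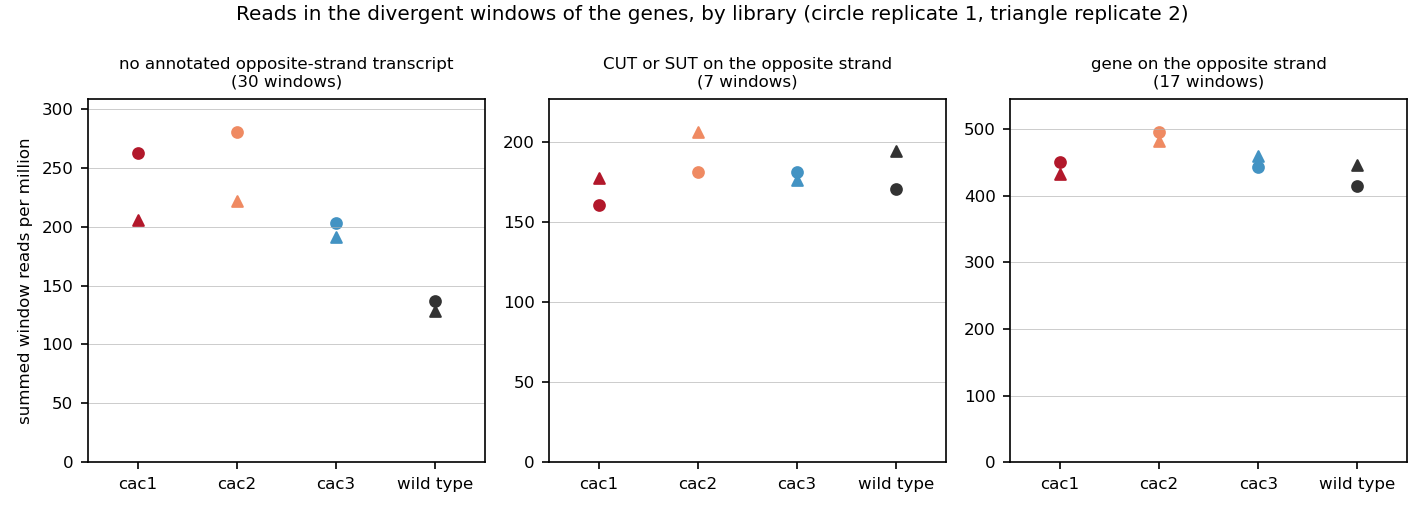
Summed RPM in the divergent windows of the 54 genes (vertical axis), by library, for windows with no annotated opposite-strand transcript, with a CUT or SUT, and with a gene. In the first panel all 6 mutant points lie at 192 or more and both wild-type points at 137 or less. In the other panels the groups overlap.

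The window of RPS16B (YDL083C, chromosome IV, 306669 to 307829 on the minus strand), for a head protein whose tail reaches the peptidyl site, rose most. It held 16 and 24 reads in cac1, 15 and 25 in cac2, 33 and 30 in cac3, and 1 and 8 in wild type. Its density was 10.8 ± 3.51, 10.97 ± 0.169 and 7.70 ± 0.0208 RPKM in the mutants in that order, and 1.35 ± 0.629 RPKM in wild type. The change was 2.53 (SE 0.38, edgeR adjusted p = 0.000798).

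The window of RPS0A (YGR214W, chromosome VII, 920555 to 921891), whose protein is needed for late 40S maturation, held 19 and 27 reads in cac1, 23 and 29 in cac2, 47 and 43 in cac3, and 2 and 10 in wild type. Its change was 2.49 (SE 0.34, edgeR adjusted p = 0.00048). RPS21A had 11 and 26 reads in cac1, 11 and 17 in cac2, 34 and 32 in cac3, and 2 and 6 in wild type, a change of 2.48 (SE 0.37). RPS24A had 12 and 28, 12 and 32, and 45 and 44 in the mutants in the same order, and 0 and 11 in wild type, a change of 2.46 (SE 0.42). All 4 lay above wild type in every mutant library once scaled for depth, and all 4 rose in each mutant. None of the 4 has an annotated transcript on the opposite strand.

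At the other end, the window of RPS25A fell, with 26 and 63 reads in cac1, 29 and 59 in cac2, 137 and 116 in cac3, and 44 and 146 in wild type, a change of -0.48 (SE 0.15). That of RPS27A fell by 0.28 (SE 0.09), and CUT705 starts 268 bases upstream of the gene, beyond this window of 252 bases. Both falls were lost with total-count scaling and with DESeq2. The smallest rises were 0.54 (SE 0.15) at RPS23A and 0.55 (SE 0.19) at RPS30A. At RPS22A replicate 1 exceeded replicate 2 in every group. Reads were 66 and 20 in cac1, 57 and 17 in cac2, 106 and 26 in cac3, and 22 and 2 in wild type. Between same-numbered libraries, read density was higher in each mutant than in wild type. Without the replicate block the change of this window, 1.98, had an SE of 1.08 and did not pass.

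The same measurement was set beside other strongly transcribed genes. Of the 504 windows of ORF-Ts that are no ribosomal protein genes and averaged 169.6 RPKM or more, 94 rose (18.7%), with a median of 0.17. The share was 42.6% among the small-subunit genes and 44.4% of 81 windows among the large-subunit genes. The difference between these shares was not tested.

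**Figure D5:**
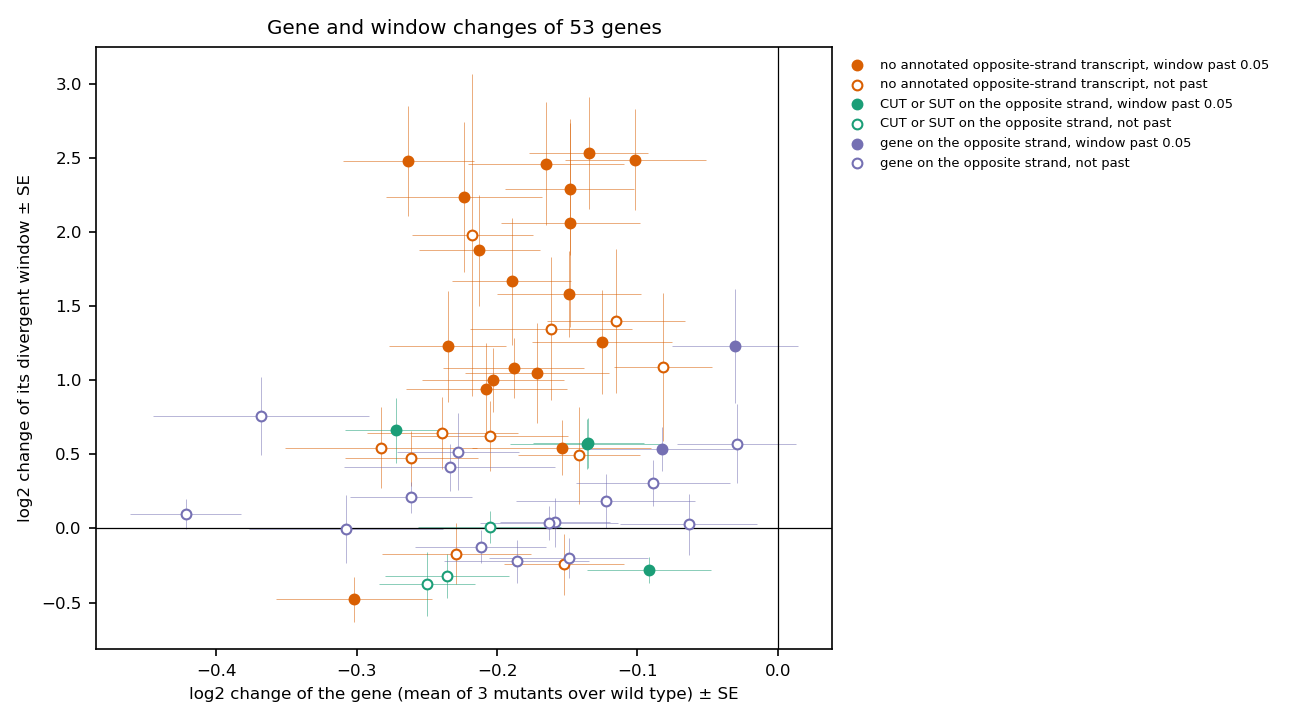
Log2 change ± SE of 53 of the 54 genes (horizontal axis) and of its divergent window (vertical axis), mean of the 3 mutants over wild type, coloured by the annotation on the opposite strand. All 53 genes lie left of 0, and the windows above 1.5 all belong to the class with no annotated opposite-strand transcript.

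The ratio of gene reads to window reads combines both. By limma on log2 values with a pseudocount of 1, it fell for 13 of 54 genes in the mean of the mutants and rose for none, where 12% of all windows tested fell and 2.73% rose. The median change was -0.78, against -0.12 over all. All 13 belong to the 30 genes with no annotated opposite-strand transcript, over which the median was -1.32. RPS24A changed by -2.996 (SE 0.46), RPS16B by -2.53 (SE 0.32), RPS0A by -2.43 (SE 0.33) and RPS21A by -2.35 (SE 0.33). In cac1, 14 fell (8.9%) and in cac2, 10 (10.6%), and none rose (2.35% and 1.77%). In cac3 none fell (0.582% of all windows) and none rose (0.091%), with 14 at an unadjusted p below 0.05. With the replicate block 20 fell in the mean (16.5% of all). Without wild-type replicate 2 there were 6, and 7 and 8 without cac3 replicate 1 or 2.

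At promoters shared with another gene, both genes and the window could be read. RPS14B, with the deepest fall of its own reads, shares its promoter region with SOP4, and its window had a change of 0.09 (SE 0.10) that did not pass. RPS29B shares its promoter region with TSR1, a 40S assembly factor, and neither its window, at 0.04 (SE 0.11), nor the TSR1 gene, at 0.06 (SE 0.06), passed. RPS15 shares its own with RPP2A, which encodes a protein of the large-subunit stalk, and there the window rose by 1.23 (SE 0.39) while neither gene passed the threshold.

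Lastly, the features of type "other" that carry an RPS symbol were read. The feature shared by FYV1 and RPS11A had a change of -0.07 (SE 0.04) and did not pass. The feature of RPS8A and YBL071C-B fell, with a change of -0.23 (SE 0.06), beside -0.21 (SE 0.06) for RPS8B. A feature of 57 bases labelled with YLR366W and RPS22B fell, with a change of -0.39 (SE 0.09).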

How the data were processed

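Per the labels, NET-seq libraries were made by a published protocol; no source used here names the aligner, filters or genome build. The authors deposited whole-number read counts per feature and an estimated count per 5′ window, with 0.5 for an empty window, taken here as 0. Also deposited by the authors, and not used for tests, were the ratio of these counts, an RPKM, the noncoding table's scaled signal, and natural log values of mutant over same-numbered wild-type ratios. Features that reached 1 RPKM in 2 or more libraries were fitted over all 8 libraries by edgeR 4.0.16 in R 4.3.3 (quasi-likelihood, trimmed-mean scaling over ORF-Ts, factors 0.964 to 1.02, Benjamini-Hochberg adjustment over 7271 features or 5494 windows). Ratios were fitted by limma 3.58.1 with a mean trend. DESeq2 1.42.0 was an alternative. Tables were made with scipy 1.17.1, pandas 2.3.3 and numpy 2.4.6 under Python 3.11.15. Tests were checked on simulated data with a dispersion of 0.00661, that of the gene counts, and no replicate effect. The dispersion of the window counts was 0.0178, so the check covers neither their spread nor the replicate pairing. Replicate numbers pair the libraries: deviations of same-numbered libraries from their group means correlated between all 6 pairs of groups, at 0.387 to 0.569 over 5039 ORF-Ts. Over the 54 members these correlations ranged from 0.0364, between cac1 and cac2, to 0.553, between cac2 and cac3. Named by rule were the single-copy genes, the 6 lowest and 6 highest changes among genes past the threshold, genes called against the majority, the 4 highest and 4 lowest wild-type levels, the 5 most and 3 least unequal pairs, pairs whose ratio passed or, with none, the 3 of smallest p, the 4 largest and 4 smallest window changes past the threshold, and up to 3 called genes per comparison list. RPS22A, RPS29B, RPS8B, RPS24B, RPS26A and neighbours of members were named after their values were seen. Members, lists and named genes were chosen with earlier results of these data known. The values of 1 gene, which stays in all counts, medians and fits, are not reported here.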

Additional observations from a re-analysis of the deposited data

Results flagged for a closer look

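For 4 genes the change from wild type differed between cac1 and cac3 by the edgeR test of the difference, which is the direct comparison of the mutants. RPS6A differed by -0.29 (SE 0.06), with levels of 346 and 382 RPKM in cac1 and 443 and 451 RPKM in cac3. RPS8B differed by -0.39 (SE 0.07), with 545 and 638 RPKM in cac1 and 756 and 792 RPKM in cac3. RPS24B differed by -0.31 (SE 0.06), with 402 and 444 RPKM in cac1 and 523 and 530 RPKM in cac3. RPS26A, whose feature also holds YGL188C-A and whose protein binds mRNA at the exit, differed by -0.32 (SE 0.05), with 765 and 818 RPKM in cac1 and 980 and 992 RPKM in cac3. The cac1 and cac3 libraries did not overlap for any of the 4. The 4 calls were lost without cac1 replicate 1, the shallowest mutant library, without either cac3 replicate and without either wild-type replicate.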

How the results depend on the processing

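With total counts as the only scaling, the falls numbered 19 in the mean, 29 in cac1, 11 in cac2, 1 in cac3 and 2 between cac1 and cac3, no window fell in the mean (0 against 2), and the RPS15 change was 0.0244. With the replicate block the falls were 34 in cac2, 10 in cac3, 29 between cac1 and cac3 and 1 between cac1 and cac2. The block gave 25 window rises and 1 fall in cac2 and 14 rises in cac3, 20 falls of the gene to window ratio, and 2, 1 and 4 pairs past the threshold in the mean, cac1 and cac2. It newly called RPS9A, RPS4A, RPS4B, RPS25A and RPS13 in cac3, RPS4A and RPS4B in cac2, RPS2 in cac1, the RPS9 ratio in the mean, cac1 and cac2 and the RPS27 ratio in cac2, and changed no other call among the genes, pairs and windows tried singly. DESeq2 called 1 fall in cac3 and 8 between cac1 and cac3, window rises of 8, 4, 8 and 2 in the mean, cac1, cac2 and cac3, and window falls of 0 in the mean and 0 in cac1. Without a mean trend 0 pairs passed in the mean. Leaving out 1 library at a time, falls ranged over 5 to 40 in the mean, 13 to 47 in cac1, 2 to 29 in cac2, 0 to 3 in cac3 and 0 to 7 between cac1 and cac3, with 0 to 0 in the other comparisons of mutants and for rises. Window rises ranged over 1 to 20, 1 to 19, 1 to 17 and 0 to 8 in the same order of groups, and window falls over 0 to 3, 0 to 2, 0 to 0 and 0 to 0. The ratio of gene to window fell for 6 to 12 genes. Pairs past the threshold ranged over 13 to 16 for the wild-type level, 0 to 2 for the change in the mean, 0 to 1 in cac1, 1 to 2 in cac2 and 0 to 0 in cac3. The RPS18 level ratio ranged over -0.0392 to 0.0182, the RPS9 change in cac3 over -0.196 to 0.00683 and that of RPS27 in cac3 over -0.00565 to 0.0687. The cause of these shifts was not tested. Of 630 alternative values of single genes 520 kept direction and call, 20 passed newly, 89 no longer passed and 1 changed sign. Of 253 values of pair ratios these numbers were 232, 13, 5 and 3, and of 104 values of single windows 73 kept direction and call and 31 no longer passed. Each group had 2 libraries, and the windows that rose most held 0 to 11 reads per wild-type library, which limits the precision of their changes.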
